A study of Ammopiptanthus mongolicus with 6 samples.

Results

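Among the assembled leaf transcripts (unigenes) of Ammopiptanthus mongolicus, 173 had at least 30 reads in each of 5 libraries and a level at least 5-fold lower in the library of 72 h of cold than in every one of those 5. They were 1.24% of the 13988 unigenes with the 30 reads, out of 67955 in all. A. mongolicus is an evergreen broad-leaved legume shrub of cold deserts, and the plants were wild type. The 6 libraries of mesophyll, the green photosynthetic tissue inside the leaf, came from untreated plants (the control), from plants at 1, 24 or 72 h of drought, and from plants at 1 or 72 h of cold, with 1 library each. The way the stresses were imposed is not stated in the labels. All 173 were chosen by their reads in these libraries, with counts under 3 set to 3 and each count divided by the total of its library. Their low level at 72 h of cold is therefore a description of the choice and is given without a test.

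In plants that acclimate to cold, leaf gene expression changes over hours to days, and many transcripts become scarcer while others accumulate. The level of a transcript is set by its synthesis and its decay together, and an RNA library measures their balance only. Evergreen leaves keep their tissue through winter, so a lower transcript level in cold can belong to seasonal adjustment as well as to a stress response. Neither was tested here. The files give assembly identifiers without gene names, so no function is assigned to any unigene here, the tissue label could not be checked against marker genes, and the members are ordered by how firmly, how abundantly and in what company they were low.

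Library totals, in units of 1000 reads, ran from 4300.03 at drought 24 h to 4673.25 in the control, a narrow range. Scaled by these totals, cold 72 h had a median log2 ratio to the control of -0.26 over the 13988 unigenes, and it was 0.02 with trimmed-mean (TMM) factors. Part of any low value in the cold 72 h library is therefore shared by most unigenes under the first scale. No treatment and time had a replicate, so the spread between plants is unknown and no p-value was computed. Bracketed ranges are exact 95% counting intervals of a ratio of 2 libraries, which cover counting error only. They take reads as independent, although PCR copies of a molecule were not told apart. A unigene is called higher or lower below when that whole interval lay beyond 2-fold, which compares libraries and not conditions.

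With library totals, the same rule with another library in the place of cold 72 h found few unigenes. It gave 1 unigene that was low in the control, 1 that was low at drought 72 h, and 0 for drought 1 h, drought 24 h and cold 1 h, from 12409 to 12546 unigenes with enough reads in the other 5. Those found were Unigene33283_All, with 5 reads in the control and 35 to 99 elsewhere, and CL7200.Contig2_All, with 35 reads at drought 72 h and 206 to 675 elsewhere, both named after their values were seen. These counts are not like for like with the 173. A drought library had to lie below the other drought libraries too, so a fall shared by drought times could not be found. Cold 72 h had only cold 1 h as another library of its stress. Library totals also placed most unigenes lower at cold 72 h, and the exchange of libraries was not repeated on another scale. The number at cold 72 h depends on the fold asked for. It was 486 at 3-fold, 270 at 4-fold, 173 at 5-fold, 71 at 8-fold, 43 at 10-fold and 13 at 15-fold.

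**Figure D1:**
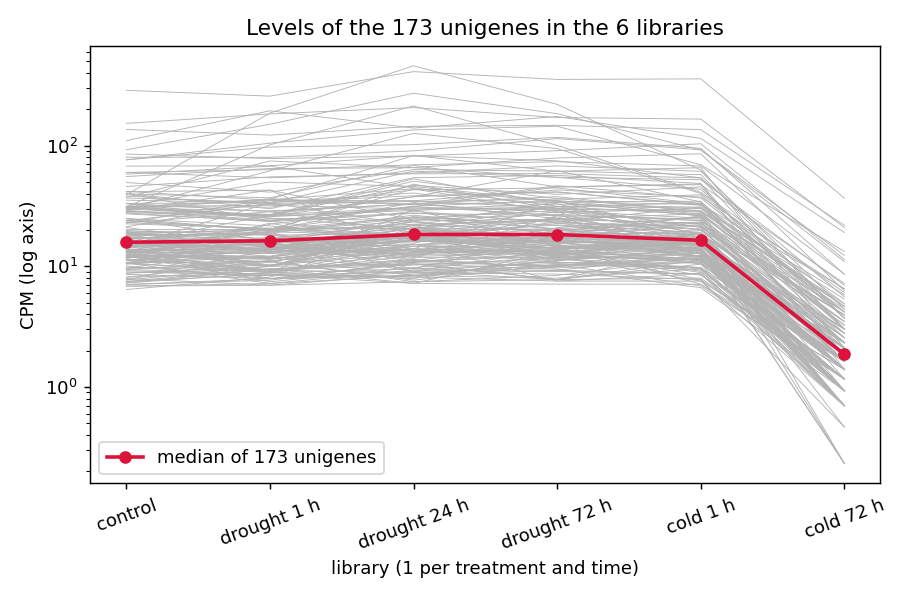
Level of each of the 173 unigenes (grey) and their median (red) in the 6 libraries, in CPM (reads scaled to a common library total) on a log axis. Lines join the values of 1 unigene and do not stand for a time course. The median lies between 15.8 and 18.4 in 5 libraries and at 1.86 at cold 72 h.

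As a group, the 173 unigenes held 0.433% of the reads of the control (exact 95% binomial interval 0.427 to 0.439%), 0.478% at drought 1 h (0.471 to 0.484%), 0.607% at drought 24 h (0.599 to 0.614%), 0.553% at drought 72 h (0.546 to 0.560%) and 0.466% at cold 1 h (0.459 to 0.472%). At cold 72 h the share was 0.0514% (0.0492 to 0.0535%). In reads this was 20234, 20566, 26083, 25656 and 21008 in the same order, and 2209 at cold 72 h. The share at cold 1 h lay between those of the control and drought 1 h. The rule asked for at least 30 reads and a level 5-fold above cold 72 h in all 5, so this order is partly set by the choice.

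Per unigene, the median member was 9.85-fold lower at cold 72 h than the median of its 5 other libraries, and 7.28-fold lower than the lowest of them. Over all 13988 unigenes the same medians were 1.21-fold and 1.02-fold lower. With TMM factors the median ratio of the members to the median of the others was 0.125, against 0.102 with library totals. The depth of the difference was uneven, with 53 members between 5- and 6-fold below their lowest other library, 77 between 6- and 10-fold, and 43 at 10-fold or beyond. No member was without a read at cold 72 h. There were 1 to 158 reads, with a median of 8, and 22 members had 3 reads or fewer.

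All 173 were called lower than each of the 5 others. Over the 13988 unigenes the share called lower at cold 72 h was 6.08% against the control, 6.03% against drought 1 h, 6.74% against drought 24 h, 6.54% against drought 72 h and 5.95% against cold 1 h. Over every unigene with a read in either library it was 2.85, 2.75, 3.04, 3.06 and 2.90%. The rule used these contrasts, so nothing is read from the difference. With TMM factors 162 of the 173 were called lower than all 5, and with median-of-ratios factors 159. A stricter reading asks that the whole interval of each of the 5 ratios lie beyond 5-fold, and 32 members passed it.

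**Figure D2:**
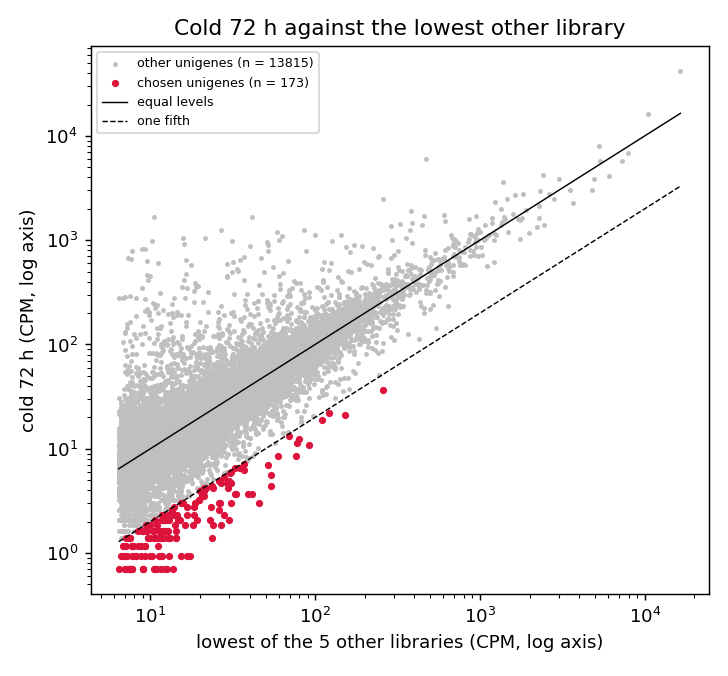
Level at cold 72 h against the lowest level among the 5 other libraries, in CPM on log axes with counts under 3 set to 3, for unigenes with at least 30 reads in each of those 5. The 173 chosen unigenes (red) lie on or under the dashed 5-fold line, and most of the other 13815 (grey) lie near the line of equal levels.

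The firmest low value, by the nearer bound of its interval, was that of a member with steady levels elsewhere. Unigene24939_All (976 bases) stood at 46.9 RPKM (reads per kilobase of unigene, scaled by the library total) in the control, 56.4, 59.8 and 60.1 RPKM at drought 1, 24 and 72 h, 55.2 RPKM at cold 1 h and 3.10 RPKM at cold 72 h. The first 5 lay within 1.28-fold of each other, and cold 72 h was 15.2-fold below the lowest (8.67 to 28.9). Unigene36361_All (355 bases), at 152 to 191 RPKM in the same 5 libraries, held 12.4 RPKM at cold 72 h, 12.3-fold below the lowest (7.67 to 20.7). Both kept the 5 other libraries in a band far narrower than the distance to cold 72 h.

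Some members were close to absent. CL7767.Contig1_All (760 bases) was represented by 73 control reads, by 59, 50 and 122 at drought 1, 24 and 72 h, by 111 at cold 1 h and by 1 at cold 72 h, where it was 50.02-fold below its lowest other library by the reads as observed (8.57 to 2015) and 16.7-fold with the count set to 3. Unigene34079_All (495 bases) had 49, 62, 54, 59 and 84 reads in those libraries and 1 at cold 72 h, a ratio of 45.1 as observed (7.72 to 1817) and 15.03 with the count set to 3. A single read leaves the size of such ratios open over a wide range, while the nearer bound stays beyond 7-fold.

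Among the same 8 firmest members, Unigene36282_All, Unigene36734_All and Unigene35492_All were less even in the 5 other libraries. Unigene36282_All (351 bases) had 115 RPKM in the control, 67.5, 88.8 and 130 RPKM at drought 1, 24 and 72 h, 137 RPKM at cold 1 h and 3.97 RPKM at cold 72 h. It was thus highest after 1 h of cold and lowest after 72 h, 17.0-fold below drought 1 h (7.54 to 47.4) and 29.0-fold below the control (13.1 to 80.0). Unigene36734_All (723 bases) ranged from 41.4 to 78.4 RPKM before reaching 2.89 RPKM at cold 72 h. Unigene35492_All (1163 bases) stood at 23.2 to 32.4 RPKM in 4 libraries, 53.2 RPKM at drought 72 h and 1.60 RPKM at cold 72 h, so that its highest and its lowest levels were both at 72 h, under the different stresses. The last of the 8, Unigene33446_All (1352 bases), had 12.95 to 17.7 RPKM in the 5 libraries and 0.688 RPKM at cold 72 h, and no more than 25.4 to 27.5% of its bases were covered in those 5.

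The 6 most abundant members were 5.77- to 10.5-fold below their lowest other library, where the group reached 19.6-fold with counts under 3 set to 3. Unigene24182_All (1041 bases) had the highest mean level, with 276 RPKM in the control, 247, 394 and 340 RPKM at drought 1, 24 and 72 h, and 343 RPKM at cold 1 h. At cold 72 h it kept 35.3 RPKM (158 reads), 6.99-fold below its lowest other library (5.91 to 8.32), still above the median of 20.5 RPKM of the 13988 unigenes in that library. Unigene9346_All (693 bases) had 220 RPKM in the control, 264, 298 and 247 RPKM in drought at 1, 24 and 72 h, 239 RPKM at cold 1 h and 30.2 RPKM at cold 72 h, 7.30-fold lower than the control (5.86 to 9.20). Unigene17689_All (686 bases) had 160 RPKM in the control, 283, 204 and 254 RPKM in drought, 167 RPKM at cold 1 h and 27.8 RPKM at cold 72 h. For these 3 abundant unigenes many reads remained at cold 72 h, so counting error leaves a narrow range under library totals. The scale moved the ratios too. With TMM factors Unigene24182_All went from 0.143 to 0.1765 of its lowest other library, outside its interval, and Unigene9346_All from 0.137 to 0.166. Unigene17689_All went from 0.173 to 0.212 and no longer met the 5-fold limit.

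Grouped by mean level over the 5 other libraries, 15 members stood at 100 RPKM or more, 22 at 50 to 100 RPKM, 66 at 20 to 50 RPKM and 70 below 20 RPKM. The median fold below the lowest other library was 6.99, 7.49, 7.08 and 7.28 in these groups. The rule cut this fold at 5, and the floor of 3 reads limits it where reads are few. No relation of the fold to abundance is therefore read from these medians. Levels at cold 72 h ran from 3.37 to 35.3 RPKM in the first group and from 0.155 to 3.04 RPKM in the last. The 10 members with the most reads held 30.2% of all member reads in the 5 libraries, and Unigene24182_All alone 6.57%.

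Members had their highest level most often in the later drought libraries. Of the 173, 60 had their highest level among the 5 other libraries at drought 24 h (34.7%) and 43 at drought 72 h (24.9%). Over the 13988 unigenes those shares were 20.6% and 16.1%. The control was highest for 25, drought 1 h for 17 and cold 1 h for 28. With TMM factors the 60 and 43 became 65 and 43. The median log2 ratio of the members to the control was 0.19 at drought 24 h and 0.14 at drought 72 h, and 0.01 at both times over the 13988 unigenes. At drought 1 h it was -0.04 and at cold 1 h 0.04, and the latter turned to -0.03 with TMM factors. All 4 ratios use the same control library, so they are not independent of each other. The rule used the levels in all 5 libraries, so these shares and ratios are partly set by the choice.

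By the 2-fold interval, 161 of the 173 were called neither higher nor lower than the control in any of these 4 libraries. The matching share of the 13988 unigenes was not counted for the 4 together, so the 161 is no trait of the members. Shares for each library follow. At drought 24 h, 10 members were higher (5.78%), beside 1.17% of the 13988 unigenes and 0.697% of all with a read. At drought 72 h, 5 were higher (2.89%), beside 0.701% and 0.396%. At drought 1 h there were 2 (1.16%), beside 0.465% and 0.336%. At cold 1 h 1 was higher (0.578%), beside 0.472% and 0.336%. No member was lower at drought 1 h, beside 0.193% of the 13988 and 0.164% of all with a read. Of the 173, 1 was lower at drought 24 h, beside 0.987% and 0.634%. At drought 72 h 1 was lower, beside 0.722% and 0.473%, and at cold 1 h 1 was lower, beside 0.386% and 0.222%. The rule asked each of these libraries to be 5-fold above cold 72 h. A unigene lower in drought than in the control therefore passed only if cold 72 h lay further below the control. The balance of higher and lower calls is thus partly set by the choice, and no trait of the members is read from it. The share of higher calls at drought 24 h rests on 10 unigenes, and the shares at 1 h of either stress rest on 1 or 2.

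CL8238.Contig1_All (1105 bases) varied most among the 5 other libraries. It had 35.4 RPKM in the control, 168, 415 and 199 RPKM at drought 1, 24 and 72 h, 56.8 RPKM at cold 1 h and 3.37 RPKM at cold 72 h. The drought libraries were above the control 4.75-fold at 1 h (4.04 to 5.61), 11.7-fold at 24 h (10.1 to 13.7) and 5.603-fold at 72 h (4.78 to 6.59), and cold 72 h was 10.5-fold below it (6.31 to 18.8). Between 50.1 and 53.3% of its bases were covered in the 5 libraries, and RPKM is an average that includes the uncovered ones.

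Unigene37694_All (786 bases) also had its highest level at drought 24 h. Its levels were 39.5 RPKM in the control, 129, 271 and 128 RPKM in drought, 52.2 RPKM at cold 1 h and 7.69 RPKM at cold 72 h. Drought 24 h was 6.87-fold above the control (5.76 to 8.24) and cold 72 h 5.13-fold below it (3.36 to 8.12). Unigene17789_All (396 bases) went from 76.2 RPKM in the control to 156, 319 and 238 RPKM in drought, stood at 101 RPKM at cold 1 h and 12.3 RPKM at cold 72 h. CL7015.Contig1_All (900 bases), also among the 6 most abundant, had 103 RPKM in the control, 167, 302 and 204 RPKM in drought, 102 RPKM at cold 1 h and 12.1 RPKM at cold 72 h, and was called higher at drought 24 h (2.94-fold, 2.63 to 3.29). In each of these 4 the peak was at drought 24 h and the low point at cold 72 h.

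Unigene36547_All (875 bases) was the 1 member called higher than the control after 1 h of cold. It had 26.2 RPKM in the control, 41.1, 94.6 and 69.95 RPKM in drought, 74.99 RPKM at cold 1 h and 2.39 RPKM at cold 72 h. It was 2.87-fold above the control at cold 1 h (2.29 to 3.61) and 10.9-fold below it at cold 72 h (5.55 to 24.6). The 2 cold times thus lay on opposite sides of the control.

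Unigene5149_All (383 bases) behaved against the description of the group as low at cold 72 h alone. It had 108 RPKM in the control and 112 RPKM at drought 1 h, then 34.6 and 34.9 RPKM at drought 24 and 72 h, 23.2 RPKM at cold 1 h and 4.25 RPKM at cold 72 h. Cold 1 h was at 0.214 of the control (0.148 to 0.301), drought 24 h at 0.319 (0.233 to 0.431) and drought 72 h at 0.322 (0.238 to 0.430). It accounts for all 3 lower calls given above, and it was 25.5-fold below the control at cold 72 h (12.1 to 64.3).

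**Figure D3:**
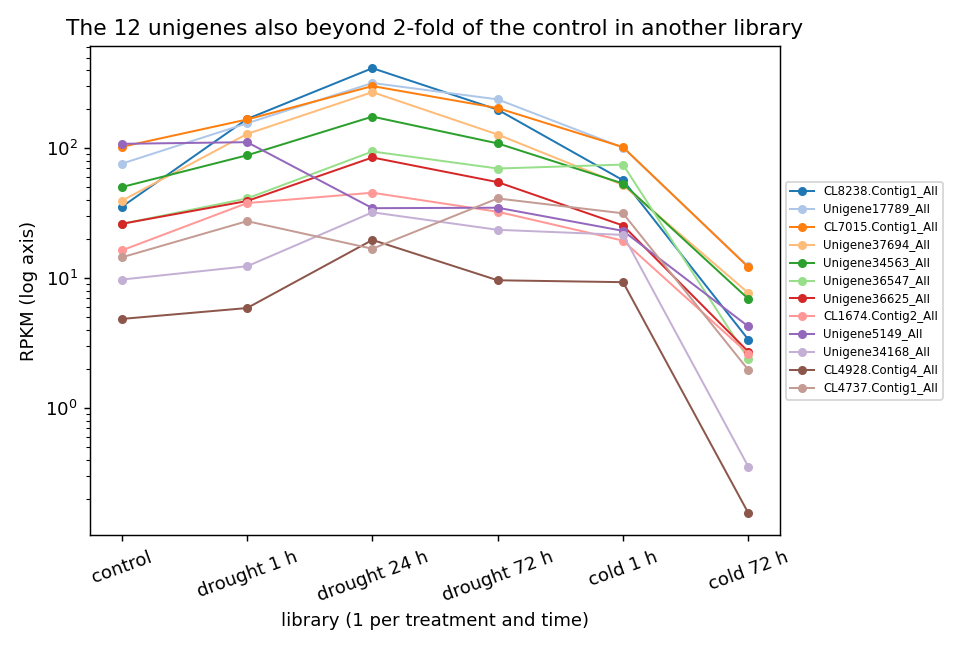
RPKM on a log axis in each library for the 12 members called higher or lower than the control in at least 1 of drought 1, 24, 72 h and cold 1 h. Lines join the values of 1 unigene. In 10 of them the level at drought 24 h was called higher than the control, and Unigene5149_All alone was called lower.

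At the other end, Unigene29691_All (984 bases) had 31.7 RPKM in the control, 32.6, 30.3 and 30.01 RPKM in drought at 1, 24 and 72 h, 29.5 RPKM at cold 1 h and 4.72 RPKM at cold 72 h. Its 5 other libraries lay within 1.104-fold, the narrowest band of the 173, and cold 72 h was 6.25-fold below the lowest (3.88 to 10.6). CL6796.Contig3_All (1049 bases) had 66 to 72 reads in those libraries and 6 at cold 72 h, and Unigene16117_All (529 bases) had 60 to 74 and 10. For these 3 cold 72 h was the one library that stood off.

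Across the group, the highest of the 5 other libraries exceeded the lowest by a median of 1.56-fold (1.104 to 11.7), against 1.43-fold over the 13988 unigenes. A spread of 2-fold or more was seen in 37 members (21.4%), against 10.5% of the 13988. Counting error adds to this spread where reads are few, and members had fewer reads, a median of the mean over 5 libraries of 74.2 against 109. Split by reads, the medians were 1.495 for both members and all unigenes under 60 reads, 1.57 and 1.48 from 60 to 100 reads, 1.58 and 1.40 from 100 to 200, and 1.68 and 1.33 at 200 or more. The 2 medians thus lay further apart in each class with more reads, and the cause was not tested. The last class holds 24 members, among them 5 of the 11 called higher than the control at any drought time.

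Members were shorter than the unigenes they were drawn from, a property the rule did not use directly. Their median length was 731 bases (202 to 3099) against 1035. Members made up 2.84% of the 1692 unigenes under 500 bases, 1.49% of those of 500 to 1000 bases, 0.754% from 1000 to 2000 and 0.515% of the 1749 of 2000 bases or more. By reads they made up 1.37% of the 3296 unigenes under 60 reads, 2.02% from 60 to 100, 1.12% from 100 to 200 and 0.601% of the 3992 at 200 or more. Length and reads go together, and their separate part in the choice was not tested. In RPKM, which divides by length, members and all 13988 stood close in the control, with medians of 25.8 and 24.96 RPKM.

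The shortest member, Unigene27193_All (202 bases), had 38 control reads, 48, 32 and 39 in drought, 53 at cold 1 h and 3 at cold 72 h, 10.7-fold below drought 24 h (3.34 to 54.5). The longest, CL1584.Contig3_All (3099 bases), had 271, 291, 192, 146 and 137 reads and then 25, and coverage was 21.6 to 22.6% of its length in the first 5 libraries and 17.2% in the last. Median coverage of the members was 86.1 to 89.7% of the length in the 5 libraries and 34.4% at cold 72 h, where over the 13988 it was 85.0%. Coverage follows the number of reads and is no separate evidence. In 27 members coverage stayed under 60% in all 5 libraries.

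Just inside the 5-fold limit lay Unigene14679_All at 5.01-fold, Unigene13981_All at 5.02-fold and Unigene31693_All at 5.05-fold below their lowest other library. Unigene26557_All, Unigene34748_All and Unigene16262_All were just outside at 4.997-, 4.995- and 4.995-fold. Unigene14679_All had 146 to 191 reads and then 28, and Unigene34748_All 165 to 187 and then 33. Values on both sides of the limit were similar, and the group has no gap at its edge.

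By their identifiers 44 members (25.4%) are contigs of 43 assembly clusters, which group similar or alternative sequences, and 129 are single unigenes. Of all 13988, 32.9% are contigs of clusters. Such contigs can be near-identical, and a read that matches several of them is not uniquely assigned, so the level of a single contig is uncertain. Summing all contigs of a cluster counts its uniquely assigned reads whichever contig they fell on. In 3 of the 43 clusters no contig besides the members is listed. As a sum, 23 of the 43 clusters were at least 5-fold lower at cold 72 h than in each other library. At least 2-fold lower were 36, and 7 were less than 2-fold lower. The sums include the chosen contigs, so a low sum is partly set by the choice. Among the 23, the chosen contigs held from 40.6% (CL1881) to 100% (as in CL3138) of the control reads of the cluster. With TMM factors the 23 became 14.

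CL5680 was the 1 cluster with more than 1 member, and both of its listed contigs were members under library totals. With TMM factors CL5680.Contig1_All was at 0.244 of its lowest other library, outside the 5-fold limit, and CL5680.Contig2_All at 0.112. CL5680.Contig1_All (624 bases) had 122 RPKM in the control, 168, 216 and 232 RPKM in drought, 111 RPKM at cold 1 h and 21.2 RPKM at cold 72 h. CL5680.Contig2_All (416 bases) had 119 RPKM in the control, 98.8, 152 and 148 RPKM in drought, 138 RPKM at cold 1 h and 8.94 RPKM at cold 72 h. Their sum was 587 control reads, 628, 852 and 956 in drought, 572 at cold 1 h and 73 at cold 72 h. The cluster as a whole was low, and the contigs were low to different degrees, 5.75-fold (4.34 to 7.74) and 13.3-fold (8.01 to 23.6) below the control.

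In the clusters with a single member, the other contigs were not part of the choice. There were 65 of them, and 21 had at least 30 reads in each of the 5 libraries. Several of the 21 share a cluster, as in CL1584 and CL665, so they are not independent units. Of these 21, 19 were below the control at cold 72 h, with a median ratio of 0.616 (0.221 to 1.32), where the median over the 13988 unigenes was 0.834. By the 2-fold interval 4 of the 21 were lower (19.0%, beside 6.08% of the 13988) and 0 higher. For higher calls the share of the 13988 was 3.53%. Of all 65, 8 were called lower and 0 higher, beside 2.85% lower and 3.0% higher of all unigenes with a read in either library. The other 44 of the 65 had under 30 reads in at least 1 of the 5 libraries, and some of them were called lower. Others had too few reads to be called either way, so little is read from the absence of higher calls.

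In the 14 clusters whose companions had at least 30 reads together in each of the 5 libraries, companions ran from nearly as low as the member to above the control. In CL1881 the member, CL1881.Contig1_All, had 138 reads in the control and 18 at cold 72 h, a 7.06-fold lower rate (4.30 to 12.3), and its companions together had 202 and 36, a ratio of 0.194 (0.132 to 0.277). In CL7377 the member had 92 and 4 reads and its companion 178 and 112, a ratio of 0.684 (0.535 to 0.871). In CL4015 the member had 65 and 8 and its companion 35 and 42, a ratio of 1.30 (0.813 to 2.10). Where companions had fewer reads, some were lower still, as in CL1218 (33 and 2, a ratio of 0.0658, 0.00765 to 0.257). Others were not, as in CL9583 (5 and 6, a ratio of 1.30, 0.331 to 5.40).

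In 5 clusters the member held under 10% of the reads of its cluster in the control. CL665.Contig4_All had 64 control reads, 55, 83 and 57 in drought, 73 at cold 1 h and 2 at cold 72 h, beside 8328 reads of its companions in the control and 6962 at cold 72 h. CL4477.Contig3_All had 72 control reads and 7 at cold 72 h beside 8746 and 6656, and CL7293.Contig2_All had 259 and 30 beside 11483 and 6041. The sums over these clusters were at 0.902, 0.821 and 0.562 of the control. For these the low value belongs to a minor contig of an abundant cluster, and the part that assignment of reads between contigs has in it was not tested. The contigs of single-member clusters described here were named after their values were seen.

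**Figure D4:**
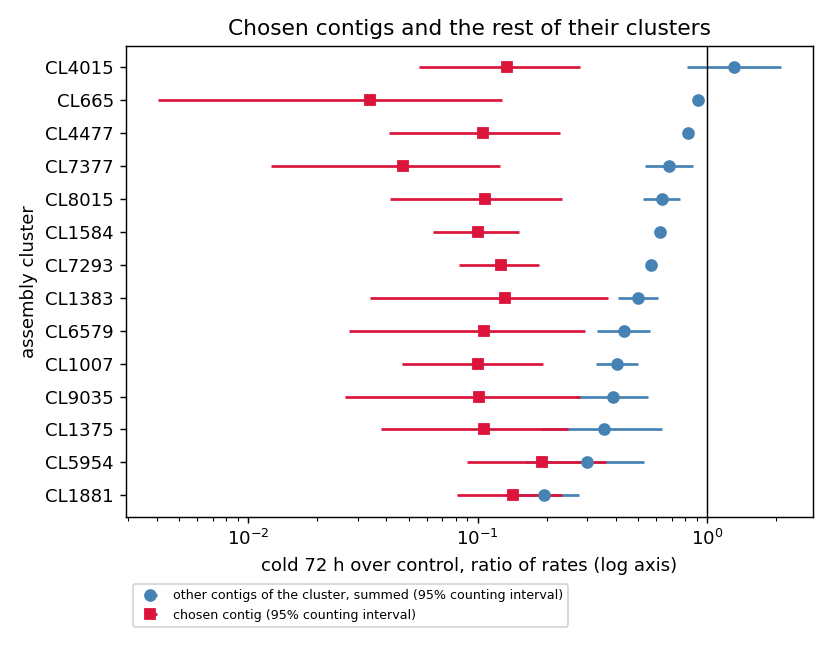
Ratio of cold 72 h to the control, on a log axis, for the chosen contig (red squares) and the other contigs of its cluster summed (blue circles), in the 14 clusters whose other contigs had at least 30 reads together in each of the 5 other libraries. Bars are exact 95% counting intervals. The chosen contig is low by the choice, and the other contigs lie under a ratio of 1 in 13, from 0.194 in CL1881 to 1.30 in CL4015.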

How the data were processed

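Leaf RNA was extracted with Trizol and made into TruSeq libraries, per the labels' protocols. For each library the authors deposited, per the file headers, the length of every unigene with a read, its uniquely assigned read count, its RPKM and the percent of its length covered. The submitters' processing notes name Bowtie 0.12.2. Assembler and strand setting: not given in the sources used here. Unlisted unigenes were set to 0 reads. Counts summed to the total in each header, which was the scale. The design text mentions triplicates, but each treatment and time analysed here is 1 library.

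The members, lists, naming rule and alternatives were chosen with earlier results of these data known. Named are the 8 members with the firmest interval against the lowest other library, the 6 most abundant, the 4 most and 3 least variable elsewhere, 3 on each side of the limit, those called against the control (up to 4 per direction and library), clusters with several members, and the longest and shortest. The part of this rule for members with 0 reads and that for companions called higher found none. Ratios carry exact 95% intervals (Clopper-Pearson on the sum of both counts, scipy 1.17.1). Interval and rule were tried on simulated counts with counting error only, so no spread between plants was covered. For the rule, the planted drops were deeper, and the reads more, than its limits. A unigene with 0 reads is below a floor of 3 counts, 0.642 to 0.698 CPM. Alternatives used TMM and upper-quartile factors (edgeR 4.0.16), median-of-ratios factors (DESeq2 1.42.0) and other limits on reads, fold, floor, interval and length. Python 3.11.15, R 4.3.3, pandas 2.3.3, numpy 2.4.6 and matplotlib 3.10.9 were used.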

Additional observations from a re-analysis of the deposited data

Results flagged for a closer look

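At 72 h, 5 members were beyond 2-fold above the control in the drought library and beyond 2-fold below it in the cold library. These 5 are 2.89% of the members, beside 0.701% of the 13988 unigenes and 0.396% of all with a read called higher at drought 72 h. The share of all unigenes that met both conditions was not counted. The drought ratios to the control were 5.603 for CL8238.Contig1_All, 3.24 for Unigene37694_All, 3.13 for Unigene17789_All, 2.84 for CL4737.Contig1_All and 2.67 for Unigene36547_All. In cold the same unigenes were 10.5-, 5.13-, 6.18-, 7.36- and 10.9-fold below the control. The low side in cold was fixed by the choice of members, which also used the drought and control reads, and both ratios use 1 control library. The difference between the drought and cold libraries was not tested, since each stress has 1 library at 72 h.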

How the results depend on the processing

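The number of members, 173, was 115 with TMM factors and 110 with median-of-ratios factors, and those 115 and 110 were all among the 173. It was 105 with a floor of 10 reads, 346 with at least 10 reads and 44 with at least 100, 486 at 3-fold and 43 at 10-fold, and 32 with whole intervals beyond 5-fold. It stayed between 125 and 210 with upper-quartile factors, totals without the 100 most abundant unigenes, a floor of 1 read, at least 500 bases, summed clusters, and any 1 of the 5 other libraries left out of the rule. The median ratio of members to their lowest other library, 0.137, became 0.167 (TMM), 0.171 (median-of-ratios) and 0.145 (0.5 added to counts). That to the median of the others, 0.102, became 0.125, 0.127 and 0.109. Clusters at least 5-fold lower as a sum were 14 in place of 23 under both TMM and median-of-ratios factors, and 36 at 2-fold. Several members chosen by the naming rule fell outside the 5-fold limit with TMM factors. They were CL1584.Contig3_All, CL5680.Contig1_All, Unigene5149_All, Unigene13981_All, Unigene14679_All, Unigene16117_All, Unigene17689_All, Unigene29691_All, Unigene31693_All and Unigene37694_All.

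Calls against the control were the same in number under TMM and median-of-ratios factors. At a stricter confidence level, higher calls were 3 at drought 72 h and 0 at cold 1 h, and lower calls 0 at drought 24 h and 0 at drought 72 h. When the interval had to exclude 1 and the ratio to reach 2, higher calls were 5, 17, 14 and 7 at drought 1, 24, 72 h and cold 1 h, and lower calls 2 at drought 24 h and 2 at cold 1 h. Beyond 4-fold, higher calls were 1, 2, 1 and 0 and lower calls 0 in all 4. With a between-plant variation (coefficient 0.2) assumed, higher calls were 1, 4, 1 and 0, and lower calls 0 at drought 24 and 72 h. The cause of these changes was not tested beyond the stricter or looser limit itself. No paired analysis was possible because each treatment and time has 1 library. Depth limits members near 30 reads, for which a floor of 3 counts allows at most about 10-fold.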
